A study of Saccharomyces cerevisiae with 164 samples.

Results

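The ergosterol pathway genes described here are 30 genes of Saccharomyces cerevisiae, chosen by systematic name: the enzymes from acetyl-CoA to ergosterol, the transcription factors UPC2 and ECM22, and the sterol uptake and storage genes AUS1, PDR11, ARE2 and HES1. The full-length RNA-seq files listed all 30 among 6692 gene features. The 3′-end files listed 29 among 5013 transcript features, and ECM22 (YLR228C) had none. All 29 passed the filter on low counts in both batches of 3′-end libraries, and all 30 passed it in the full-length libraries.

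Ergosterol is the main sterol of yeast membranes and takes the place that cholesterol has in animals. Its synthesis begins with the mevalonate pathway, in which HMG-CoA reductase (HMG1 and HMG2) is the rate-controlling enzyme, and continues from farnesyl diphosphate through squalene and lanosterol in steps that use much oxygen, NADPH and heme. The zinc cluster activators Upc2 and Ecm22 bind sterol regulatory elements in promoters of ERG genes and raise transcription when sterol falls. Cells with oxygen make their own sterol, and the importers Aus1 and Pdr11 serve uptake when they cannot.

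RNA came from MATa haploid strains grown in rich glucose medium (YEPD) to mid-log phase. In all of them, the pseudo-wild-type included, both chromosomal H3-H4 gene pairs were deleted and H3 was supplied by 2 centromeric plasmids. The TRP1 plasmid carried the H3 called H3X (L127A and L131V) and the LEU2 plasmid the H3 called H3Y (L110I, A111W and L131I), 2 versions built to pair with each other. A further substitution stood in H3X alone or H3Y alone (asymmetric strains) or in both (symmetric strains), and the pseudo-wild-type had none. The 66 3′-end libraries held R2K, K36Q and K37Q in sequencing batch 10 and K14R, K18R and K56R in batch 11, with 3 libraries for each of the 18 strains and 6 of the pseudo-wild-type per batch. The 98 full-length libraries of batches 1 to 9 covered 21 mutants. Of these 13 had symmetric and asymmetric strains: R2K, K9R, K9Q, S10A, K14R, K14Q, K18R, K18Q, K27R, K27Q, K36Q, K37Q and K56R. The 8 with asymmetric strains only were K4A, K4Q, K4R, K36R, T45A, K56Q, K79A and the tail deletion delta4-20. A strain had 1 or 2 libraries, and there were 5 pseudo-wild-type libraries, labelled batches 2, 3, 4 and 8 (2 libraries in batch 8). The other full-length batches held no pseudo-wild-type. Libraries there were tied to it only through strains that also had libraries in other batches, and batch 9 shared no strain with the others. Because the pseudo-wild-type lives on the same engineered plasmids, no group stands for an unmodified strain. The labels do not say whether replicates were separate cultures or clones, so p-values measure the spread between these samples, which may be technical. In bulk RNA, fewer cells of a type and less RNA per cell cannot be told apart.

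Total counts ran from 750551 to 5156160 in the 3′-end libraries and from 542727 to 21573351 in the full-length ones. All 6 a-cell markers were present, with summed levels of 616 to 1223 CPM (counts scaled to the size of the library) in 3′-end and 867 to 2266 CPM in full-length libraries, against 23.2 to 65.0 and 10.0 to 43.9 CPM for 3 alpha-cell genes. Some libraries stood apart, measured as the spread of log2 ratios to the batch median over genes above 20 CPM. The median spread was 0.21 in 3′-end and 0.29 in full-length libraries. In the 3′-end data K37Q H3X replicate 3 (0.68) and symmetric K18R replicate 5 (0.60) were highest, and in the full-length data 8 libraries exceeded 0.60, led by symmetric K14R replicate 2 (1.39) and K18Q H3X replicate 1 (1.32). For 21 of the 30 members the highest full-length value lay in one of those 8 libraries. Full-length pseudo-wild-type replicates 1 to 3 differed from each other by little more than sampling noise (a chi-square of 1.15 to 2.76 for each degree of freedom, where the 45 other same-strain pairs had 8.73 to 301) and are counted as 1 sample in means, so that n = 3.

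The members spanned a wide range of levels in the pseudo-wild-type. On the scale of full-length CPM per kilobase of coding length, ERG2 (sterol isomerase) was highest at 889.9 ± 479 (SD, n = 3). It was followed by ERG25 (C-4 methyl sterol oxidase) at 799 ± 127, ERG3 (sterol desaturase) at 716 ± 229, ERG11 (lanosterol demethylase, the target of azole drugs) at 618 ± 83.6 and ERG6 (sterol methyltransferase) at 573 ± 124. These 5 neighbours in the order differed by less than the larger of their SDs. The next were ERG20 (farnesyl diphosphate synthase) at 428 ± 45.6, ERG13 (HMG-CoA synthase) at 426 ± 68.8 and ERG1 (squalene epoxidase, the target of terbinafine) at 414 ± 76.0, which cannot be ordered by these 3 samples.

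The 2 HMG-CoA reductase genes were far apart: HMG1 stood at 140.2 ± 7.98 CPM per kilobase and HMG2, which is linked to low oxygen, at 31.9 ± 2.31. The activators were low, with UPC2 at 31.2 ± 9.80 and ECM22 at 25.9 ± 2.98 CPM per kilobase. The sterol ester synthase gene ARE2 stood at 108 ± 13.4. The importers AUS1 (9.92 ± 2.04) and PDR11 (8.85 ± 1.21) and the oxysterol-binding protein gene HES1 (5.01 ± 3.57) closed the order. Thus the uptake genes lay under the enzymes by a wide margin, as the plot of pseudo-wild-type levels shows.

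**Figure D1:**
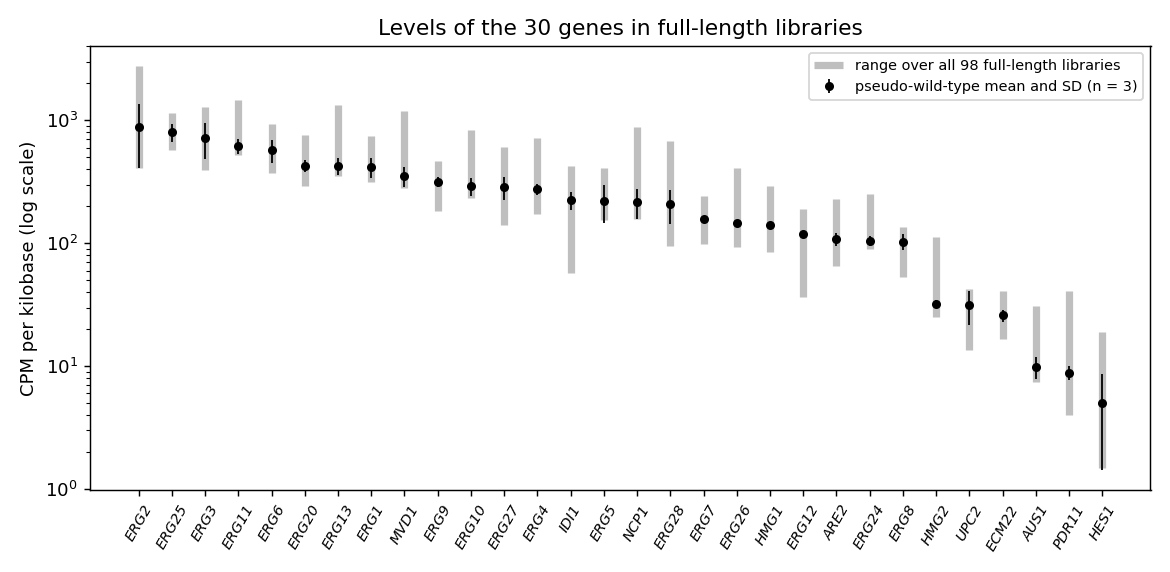
Level of each of the 30 genes in the full-length pseudo-wild-type samples, in CPM per kilobase of coding length on a log axis. Points are means with their SD (n = 3, replicates 1 to 3 averaged into 1), and grey bars span all 98 full-length libraries. ERG2 at 889.9 is the highest mean and HES1 at 5.01 the lowest.

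Across the 98 full-length libraries of all strains ERG25 varied least, with a highest value 1.98 times the lowest, and HES1 most, at 12.7 times. The lowest HES1 value is a single read (a count of 1) in pseudo-wild-type replicate 5, the shallowest library, and without that library the range was 11.1 times. Several ranges were set by the libraries that stood apart: without those 8 the range of NCP1, the reductase that feeds electrons to the P450 enzymes, went from 5.62 to 1.98 times, that of the isomerase gene IDI1 from 7.32 to 3.22 and that of MVD1 (mevalonate decarboxylase) from 4.23 to 1.97. The range of ERG2 went from 6.73 to 4.66.

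The core of the sterol regulatory element, TCGTATA, was searched on both strands of the 500 bases before each start codon, since it is a binding sequence of Upc2 and Ecm22. It was found for 8 of the 30 members (26.7%) and for 420 of 6000 protein-coding genes (7%). The 8 were ERG1, ERG2, ERG3, ERG6, ERG8, ERG13, ERG25 and ERG28, and ERG3, ERG13 and ERG25 held it 2 times. A match describes letters and not a bound site. The windows below are 29 bases of build R64 (sacCer3), read on the strand of the gene, with the element in capitals, where TATACGA is the same element on the other strand. They are shown for 6 members that differ in the results: ERG2 and ERG28 were among the lower genes in K14R strains, ERG6 was lower in the symmetric K14R strain, and ERG1, ERG3 and ERG25 did not pass the threshold there.
ERG2, chrXIII:667341-667369, plus strand, centred 182 bases before the start codon: aaccacggcccTCGTATAagccgcaagga
ERG28, chrV:238277-238305, minus strand, centred 275 bases before: taacctaatctTATACGAactgaattaaa
ERG6, chrXIII:253405-253433, minus strand, centred 429 bases before: agccccgatctTCGTATAtggtacctcgt
ERG1, chrVII:848788-848816, minus strand, centred 379 bases before: gtagcgggcctTCGTATAgctcggccgag
ERG3, chrXII:253564-253592, plus strand, centred 283 bases before: aaaattcaggcTCGTATAagtggcacaat
ERG25, chrVII:610070-610098, plus strand, centred 480 bases before: actgcctccctTCGTATAcgggacacaga

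The symmetric K14R strain (arginine for lysine 14 on both H3 copies) had the most lower ergosterol genes among the 3′-end comparisons with the pseudo-wild-type. Of 29 members 13 were lower and 1, UPC2, was higher in the symmetric K14R strain (n = 3 against 6). Of all 4961 genes tested in this comparison 15.8% were lower and 20.4% higher. The median log2 fold change was -0.24 over the members and 0.01 over all genes. Of the 14 members called, 2 passed with each library's trend with transcript length as a covariate, as described below. In the full-length fit 10 of the 14 had the opposite sign. The test was edgeR's quasi-likelihood F-test with Benjamini-Hochberg adjustment over all genes at 0.05, errors on log2 fold changes are its standard errors, and levels in the 3′-end data are TMM-normalised CPM. The heatmap of the 3′-end fold changes shows the K14R columns beside those of the other mutants.

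**Figure D2:**
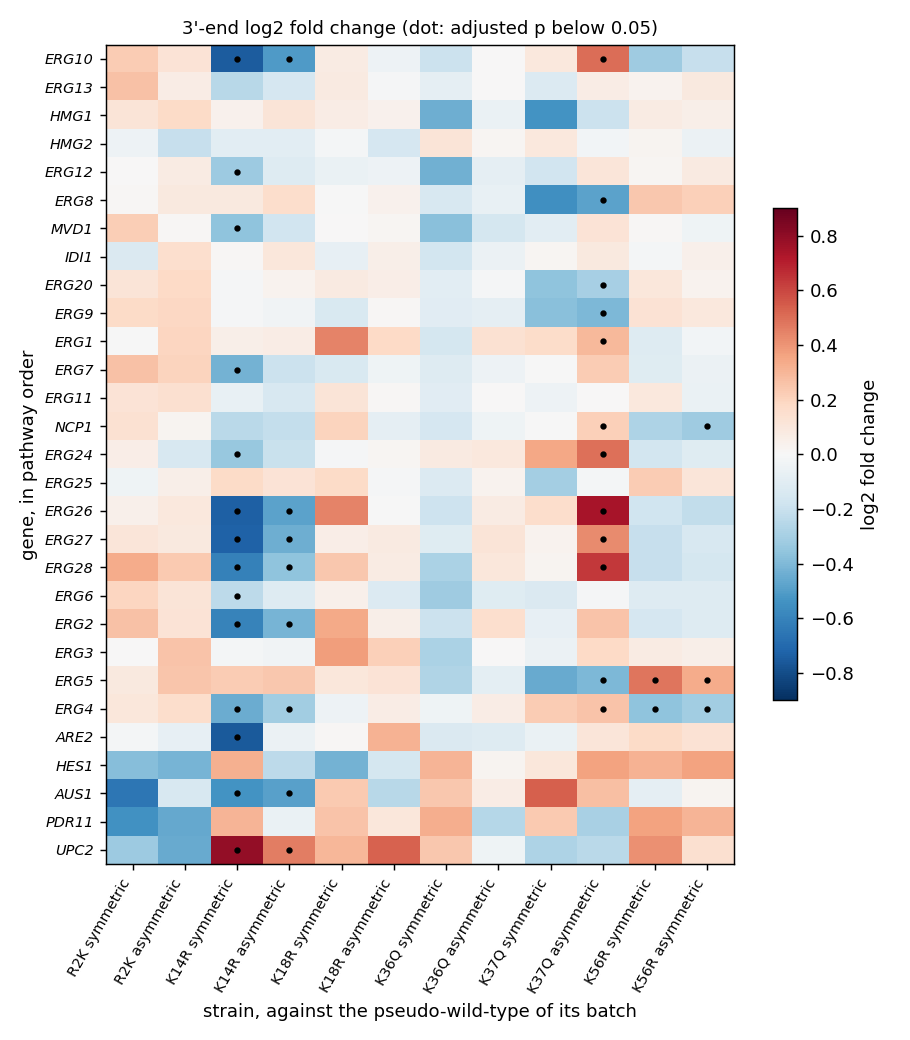
Log2 fold change of the 29 members tested in the 3′-end data, symmetric and asymmetric strains of 6 mutants against the pseudo-wild-type of the same batch. Dots mark members past an adjusted p of 0.05. Symmetric K14R has 14 dots and asymmetric K37Q 12, with several genes of opposite colour in the 2.

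Among the mevalonate pathway genes 3 of 9 fell. ERG10 (YPL028W), the acetoacetyl-CoA thiolase of the first step, stood at 379.1, 379.8, 393, 505, 513 and 566 CPM in the pseudo-wild-type and at 277, 262 and 275 CPM in symmetric K14R. The groups did not overlap, and the log2 fold change was -0.75 ± 0.13 (adjusted p = 0.000205). ERG12 (mevalonate kinase) fell by 0.33 on the log2 scale, with overlapping groups (adjusted p = 0.0154). MVD1 fell by 0.36 and lay close to the threshold (adjusted p = 0.048). Neither HMG-CoA reductase gene passed: the log2 fold change was 0.04 for HMG1 and -0.09 for HMG2.

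From squalene to ergosterol 8 of 15 genes fell. ERG27 (YLR100W), the 3-keto sterol reductase, had the smallest adjusted p of all members. Its 6 pseudo-wild-type libraries held 548, 613, 661, 715, 728 and 787 CPM and the 3 symmetric K14R libraries 401, 416 and 404.5 CPM. The groups stood apart with no overlap, and the log2 fold change was -0.73 ± 0.12 (adjusted p = 0.00017). ERG27 works in the complex that removes the C-4 methyl groups with ERG25, ERG26 and the scaffold ERG28. ERG26 (C-3 sterol dehydrogenase) fell from 253 ± 49.8 CPM (n = 6) to 152 ± 3.09 CPM (n = 3), a log2 fold change of -0.73 ± 0.19 (adjusted p = 0.00392). ERG28 fell from 463 ± 70.0 to 304 ± 20.6 CPM (log2 fold change -0.61 ± 0.16, adjusted p = 0.00399). ERG25, the oxidase of the same complex, did not pass, at 0.17 (adjusted p = 0.153).

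ERG7 (YHR072W), the lanosterol synthase, stood at 104, 111, 115, 117, 123 and 129 CPM in the pseudo-wild-type and at 88.0, 87.5 and 84.5 CPM in symmetric K14R. The 3 mutant libraries lay close together under the lowest pseudo-wild-type value, and the log2 fold change was -0.43 ± 0.10 (adjusted p = 0.00266). Late enzymes also fell: ERG2 from 3265 ± 664 to 2148 ± 17.3 CPM (-0.60 ± 0.15, adjusted p = 0.00338) and ERG4, which reduces the side chain in the last step, from 311 ± 34.5 to 227.5 ± 14.9 CPM (-0.45 ± 0.12, adjusted p = 0.00416). ERG24 (sterol reductase) fell by 0.34 and ERG6 by 0.24 on the log2 scale, the latter near the threshold (adjusted p = 0.0416). The P450 enzyme gene ERG11 (-0.07), ERG1 (0.06) and ERG3 (-0.02) had fold changes near 0 and did not pass.

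The activator gene UPC2 (YDR213W) was the member that rose. It stood at 9.36, 13.0, 14.7, 15.7, 16.3 and 20.5 CPM in the pseudo-wild-type and at 20.2, 27.7 and 30.2 CPM in symmetric K14R. The highest pseudo-wild-type value slightly exceeded the lowest mutant value, and the log2 fold change was 0.79 ± 0.19 (adjusted p = 0.00246). Of the 4 storage and uptake genes AUS1 and ARE2 fell, by 0.54 (adjusted p = 0.0194) and 0.75 (adjusted p = 0.0302) on the log2 scale. ARE2 had few 3′-end reads: 5.63 to 14.6 CPM in the pseudo-wild-type and 4.37 to 7.94 CPM in the mutant. In the full-length pseudo-wild-type it stood at 108 CPM per kilobase, at percentile 77.3 of all genes. The reason for this gap between the assays was not tested. PDR11 (0.31) and HES1 (0.32) did not pass.

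**Figure D3:**
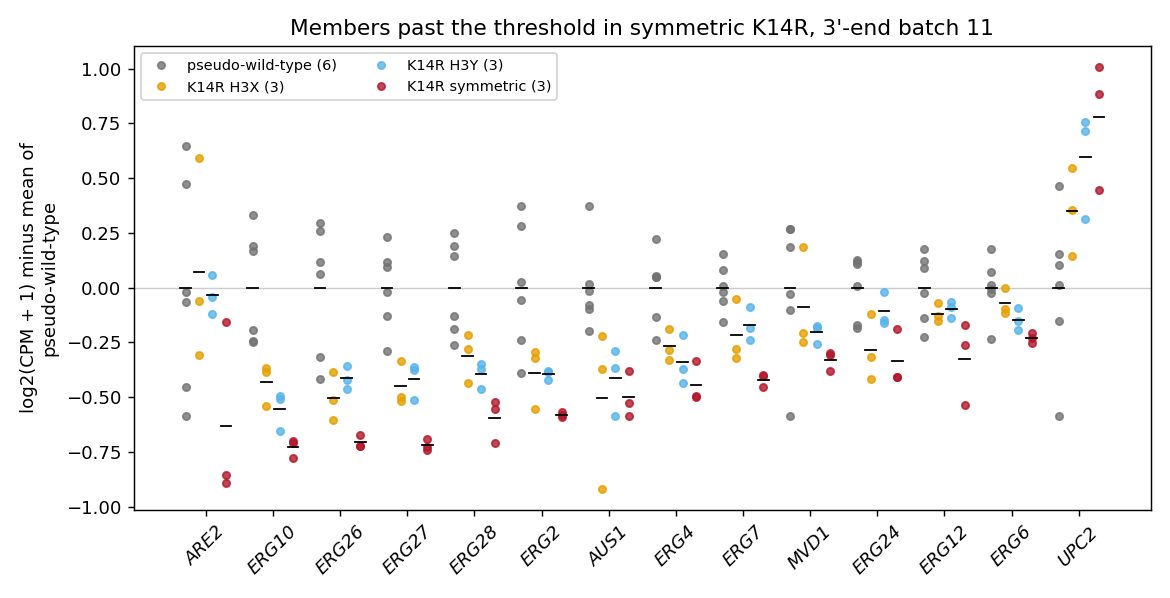
The 14 members past the threshold in symmetric K14R, 3′-end batch 11: log2(CPM + 1) minus the mean of the 6 pseudo-wild-type libraries, for these and the 3 libraries each of K14R in H3X, in H3Y and in both. Points are libraries and bars are means. For ERG27 the symmetric values of 401 to 416 CPM lie under the lowest pseudo-wild-type value of 548, with the asymmetric strains at 469 to 531.

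All 3 symmetric K14R libraries lay under all 6 pseudo-wild-type libraries for 9 members (ERG2, ERG4, ERG7, ERG10, ERG24, ERG26, ERG27, ERG28 and AUS1), a separation that 15.7% of all genes showed in that direction. They lay above all 6 for PDR11, whose fold change did not pass, against 15.3% of all genes. Members with the TCGTATA element included 3 of 8 lower genes (median log2 fold change -0.13), and members without it included 10 of 21 lower and 1 higher (median -0.24).

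Fold changes in this comparison went with transcript length across all genes. Spearman's rho between feature length and log2 fold change was 0.41 over 4961 genes and 0.25 over the 29 members, as a description across genes that share libraries. The slope of log2 CPM on log2 length, taken relative to the batch, was 0.139 ± 0.023 (SD, n = 3) in symmetric K14R, -0.084 ± 0.090 (n = 6) in its 6 controls, 0.056 ± 0.034 in K14R H3X and 0.114 ± 0.025 in K14R H3Y. Members of at most 1529 bases, 15 genes, had 9 of the 13 falls and a median of -0.33, where all genes of that length had -0.12. The 14 longer members had a median of -0.08 against 0.15 for all longer genes. With each library's slope as a covariate 2 members passed, ERG27 (-0.49, adjusted p = 0.0101) and ERG10 (-0.45, adjusted p = 0.0192), while calls among all genes went from 1796 to 228.

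**Figure D4:**
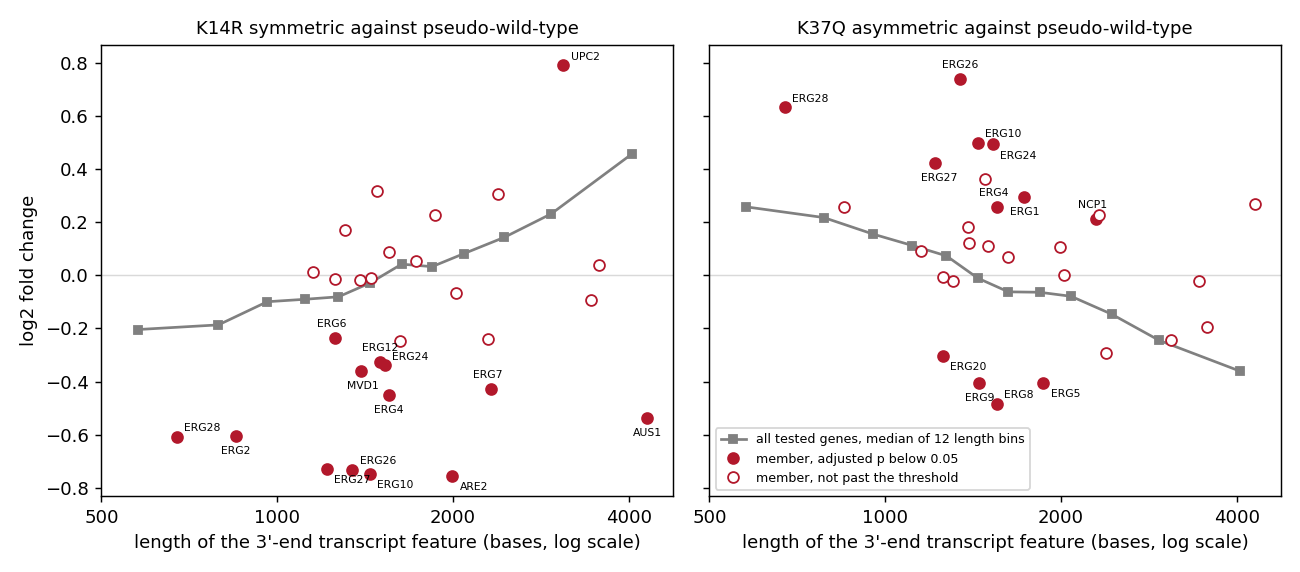
Log2 fold change (y axis) against length of the 3′-end transcript feature (log axis, bases) for symmetric K14R and asymmetric K37Q against the pseudo-wild-type, 3′-end data. The line joins the medians of all tested genes in 12 length bins and points are members, labelled and filled where they passed the threshold. The line runs from -0.20 to 0.46 in K14R and from 0.26 to -0.36 in K37Q.

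The chromosome neighbours of the called members had medians near 0. The median log2 fold change of the 50 genes nearest to each of the 14 (48 for MVD1) lay between -0.13 (ERG27) and 0.15 (ERG12).

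K14R on 1 H3 copy was compared as the mean of the H3X and H3Y strains against the same 6 pseudo-wild-type libraries. Of 29 members 7 fell and UPC2 rose, where 11.6% of all genes fell and 17.4% rose. Of these ERG10 (-0.51 ± 0.10, adjusted p = 0.00164), ERG27 (-0.44 ± 0.09, adjusted p = 0.00231) and ERG2 (-0.42 ± 0.12, adjusted p = 0.0126) had the smallest p. AUS1, ERG4, ERG26 and ERG28 fell by 0.49, 0.31, 0.48 and 0.36 on the log2 scale, and UPC2 rose by 0.46 (adjusted p = 0.0358). All 8 genes are among the 14 of the symmetric strain, but both comparisons use the same controls.

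In the single libraries ERG27 stood at 469, 474 and 531 CPM with K14R in H3X and at 517, 469 and 522 CPM with K14R in H3Y, between the symmetric strain and the pseudo-wild-type. ERG10 stood at 309, 344 and 349 CPM and at 316, 286 and 319.5 CPM, also between the 2. UPC2 held 16.2, 18.9 and 21.7 CPM with H3X and 18.3, 24.5 and 25.2 CPM with H3Y, which overlap the pseudo-wild-type. All 6 asymmetric libraries lay under all 6 pseudo-wild-type libraries for ERG27, AUS1 and ERG10, as for 2.62% of all genes. With the length slope as a covariate 0 members passed.

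The direct test of 2 changed copies against 1 called 0 of 29 members with edgeR and 0 with DESeq2 (0.0403% of all genes, 3 members at an unadjusted p under 0.05). The smallest adjusted p was 0.654, and the differences were -0.29 ± 0.12 for ERG27 and -0.70 ± 0.26 for ARE2. The H3X against H3Y test of K14R called 0 as well, with 0 by DESeq2 and 2 at an unadjusted p under 0.05 (0.464% of all genes). HMG2 differed there by 0.27, short of the threshold.

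The symmetric K14R strain was also set against the other symmetric strains of its batch, a choice made after the values were seen. Against symmetric K18R 12 members were lower and 0 higher, with 17.8% of all genes lower and 16.3% higher. The largest differences were in ERG26 (-1.18 ± 0.22, adjusted p = 0.000828), ERG2 (-0.95 ± 0.17, adjusted p = 0.000797), ERG28 (-0.85 ± 0.18, adjusted p = 0.00162), ERG10 (-0.82 ± 0.15, adjusted p = 0.000751) and ERG27 (-0.79 ± 0.13, adjusted p = 0.000672). AUS1, NCP1, ERG4, ERG3, ERG24, ERG13 and ERG6 made up the rest. The K18R libraries had length slopes of -0.199 ± 0.216, and with the slope as a covariate 0 members passed. Against symmetric K56R 1 member passed, ERG27 at -0.52 ± 0.13 (adjusted p = 0.0142, 7.98% of all genes in either direction). There the count went to 6 with the slope.

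In K37Q strains, with glutamine in place of lysine 37, members differed in both directions when the substitution was on 1 copy. Of 29 members 8 rose and 4 fell in asymmetric K37Q, where 19.9% of all genes were higher and 21.6% lower, so the counts of members lay near the background. With the length slope as a covariate 0 of the 12 passed. The median was 0.11 over members and -0.01 over all genes. Most rises lay between squalene and ergosterol, with 7 of 15 genes higher and 2 lower, and the mevalonate genes had 1 higher and 2 lower of 9.

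ERG26 rose most, from 168.6 to 296.2 CPM in its 6 controls to 594, 306 and 435 CPM in K37Q H3X and 404, 404 and 396 CPM in K37Q H3Y. All 6 mutant libraries lay above all 6 controls, as for ERG27 and 4.11% of all genes, and the log2 fold change was 0.74 ± 0.13 (adjusted p = 0.000104). ERG24 rose from 224 ± 29.7 CPM (n = 6) to 323 ± 49.5 in H3X and 311 ± 17.8 in H3Y (0.49 ± 0.09, adjusted p = 0.000118). ERG28, ERG27 and ERG10 rose by 0.63, 0.42 and 0.50, and ERG1, ERG4 and NCP1 by 0.29, 0.26 and 0.21. ERG8 (phosphomevalonate kinase) fell from 62.4 ± 6.29 CPM to 42.0 ± 8.85 in H3X and 45.7 ± 5.33 in H3Y, with no overlap, as for 2.93% of all genes (-0.48 ± 0.11, adjusted p = 0.000713). ERG9 (squalene synthase), ERG5 (the desaturase of the P450 family) and ERG20 fell by 0.40, 0.40 and 0.30.

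The 6 genes ERG4, ERG10, ERG24, ERG26, ERG27 and ERG28 passed both here and in symmetric K14R, 50% of the 12 and 42.9% of the 14, and all 6 had opposite signs. The share of all genes that passed both with opposite signs was not counted, so the overlap is not shown to be particular to the members. The length trend was opposite too, with Spearman's rho over all genes of 0.41 in symmetric K14R and -0.49 in asymmetric K37Q. Slopes of log2 CPM on log2 length were -0.211 ± 0.197 (SD, n = 3) in K37Q H3X and -0.150 ± 0.042 in K37Q H3Y against 0.065 ± 0.086 (n = 6) in the pseudo-wild-type. With the slope as a covariate 0 of all genes passed, and ERG4 and NCP1 turned to -0.012 and -0.093. Without K37Q H3X replicates 3 and 5, which stood apart (spreads 0.68 and 0.43), 3 members passed: ERG26, ERG24 and ERG8.

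K37Q on both copies gave 0 members with edgeR (0.1% of all genes), 1 with DESeq2 and 8 at an unadjusted p under 0.05. ERG8 was again low, at 43.8, 34.0 and 48.9 CPM, all under the pseudo-wild-type range of 54.0 to 70.1 CPM, as for ERG9 and 1.71% of all genes (-0.56 ± 0.13, adjusted p = 0.0979). ERG26 stood at 262, 321 and 261 CPM, with replicate 4 above the highest control and the other two inside the control range, and HMG1 at -0.54 did not pass. The symmetric against asymmetric test called 0 of 29 members (0% of all genes, 3 by DESeq2, 9 unadjusted), so the difference between the forms did not pass. H3X against H3Y called 0 by both tools (0% of all genes, 0 unadjusted).

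In K56R strains, changed at the lysine in the globular core of H3 that is acetylated in new nucleosomes, few members passed although many genes did. On both copies 2 of 29 passed, where 23.9% of all 4961 genes did in either direction. ERG5 stood at 162 to 241 CPM in the pseudo-wild-type and at 269, 253 and 326 CPM in symmetric K56R, with no overlap and a log2 fold change of 0.48 ± 0.14 (adjusted p = 0.0119). ERG4 stood at 262 to 360 CPM and at 252, 230.5 and 242 CPM, again with no overlap (-0.36 ± 0.12, adjusted p = 0.0244). All 3 mutant libraries lay above all controls for ERG5 and ERG25, as for 12.1% of all genes, and below them for ERG4 and NCP1, as for 13.3%, so such separation was no more frequent among members than among all genes. ERG4 and ERG5 work side by side at the end of the pathway and moved in opposite directions. With DESeq2 4 members passed and with the length slope 0.

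On 1 copy 3 members passed (22.9% of all genes): NCP1 at -0.32 ± 0.08 (adjusted p = 0.00894), ERG4 at -0.31 ± 0.09 (adjusted p = 0.0168) and ERG5 at 0.34 ± 0.11 (adjusted p = 0.0324). With the slope NCP1 alone of these 3 passed. The test of 2 copies against 1 called 0 members with edgeR and with DESeq2 and had 0 at an unadjusted p under 0.05 (2.18% of all genes). H3X against H3Y called 0 with both tools, with 3 unadjusted (2.88% of all genes). The largest difference there was in HES1, at 0.87 ± 0.30 (adjusted p = 0.168).

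In the other 3 mutants of the 3′-end data 0 members passed in each comparison with edgeR and with DESeq2. In symmetric R2K, asymmetric R2K, and their symmetric against asymmetric and H3X against H3Y tests, 0% of 4984 genes passed, and 4, 4, 2 and 0 members had an unadjusted p under 0.05. The same 4 tests of K36Q also called 0% of all genes, with 5, 0, 7 and 0 members unadjusted. Symmetric K18R called 1.81% of all genes, with 4 members unadjusted and ERG1 nearest to the threshold (0.45, adjusted p = 0.0958). In asymmetric K18R, and in its symmetric against asymmetric and H3X against H3Y tests, 0% of 4961 genes passed, with 2, 3 and 0 members unadjusted.

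Over the 24 planned 3′-end comparisons ERG4 passed in 5 and ERG5, ERG10, ERG26, ERG27 and ERG28 in 3 each. Comparisons with the pseudo-wild-type within a batch share the same 6 control libraries, so these are not independent repeats. The share of all genes that passed as often was not counted. ERG3, ERG11, ERG13, ERG25, HMG1, HMG2, IDI1, PDR11 and HES1 passed in 0. ERG11 had the narrowest range of these, from -0.18 to 0.16 on the log2 scale.

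The full-length libraries gave a different picture of symmetric K14R. With 2 libraries against 5 of the pseudo-wild-type and batch as a term, 6 of 30 members rose and 0 fell, where 14.6% of 6376 genes rose and 5.69% fell. NCP1 (YHR042W) stood at 359, 352, 334, 421 and 589 CPM in the pseudo-wild-type and at 392 and 1831 CPM in symmetric K14R replicates 1 and 2. Replicate 1 lay inside the control range and replicate 2 far above it, and the log2 fold change was 1.31 ± 0.32 (adjusted p = 0.00726). ERG2 stood at 305, 307.5, 275, 558.5 and 934 CPM against 479.5 and 1852 CPM (1.42 ± 0.38, adjusted p = 0.0101), with the same split between the replicates. MVD1, PDR11, ERG3 and ERG28 rose by 1.03, 0.98, 0.69 and 0.88.

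Batch 7 held no pseudo-wild-type library. The calls in symmetric K14R rest on its replicate 2 from that batch, the library with the largest spread. Without it 0 members and 0 of all genes passed and NCP1 stood at -0.062, while without replicate 1 the count was 20. Without the pseudo-wild-type libraries of batches 3 and 4, 2 of the 3 that nearly match, it was 0. The 13 members lower in the 3′-end data had a median log2 ratio of -0.04 in replicate 1, with 4 above the pseudo-wild-type, and 1.03 in replicate 2, with 9 above. Against the 1 pseudo-wild-type library labelled batch 2, as replicate 1 is, 10 of these 13 were above it and 3 (ERG12, ERG26 and ERG27) below. The median log2 ratio was 0.09 and the range from -0.16 to 0.65. That library nearly matches those labelled batches 3 and 4, so whether it shares a batch with replicate 1 cannot be told. The direction in replicate 1 thus depends on which pseudo-wild-type libraries it is set against, and the difference between the assays was not tested.

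**Figure D5:**
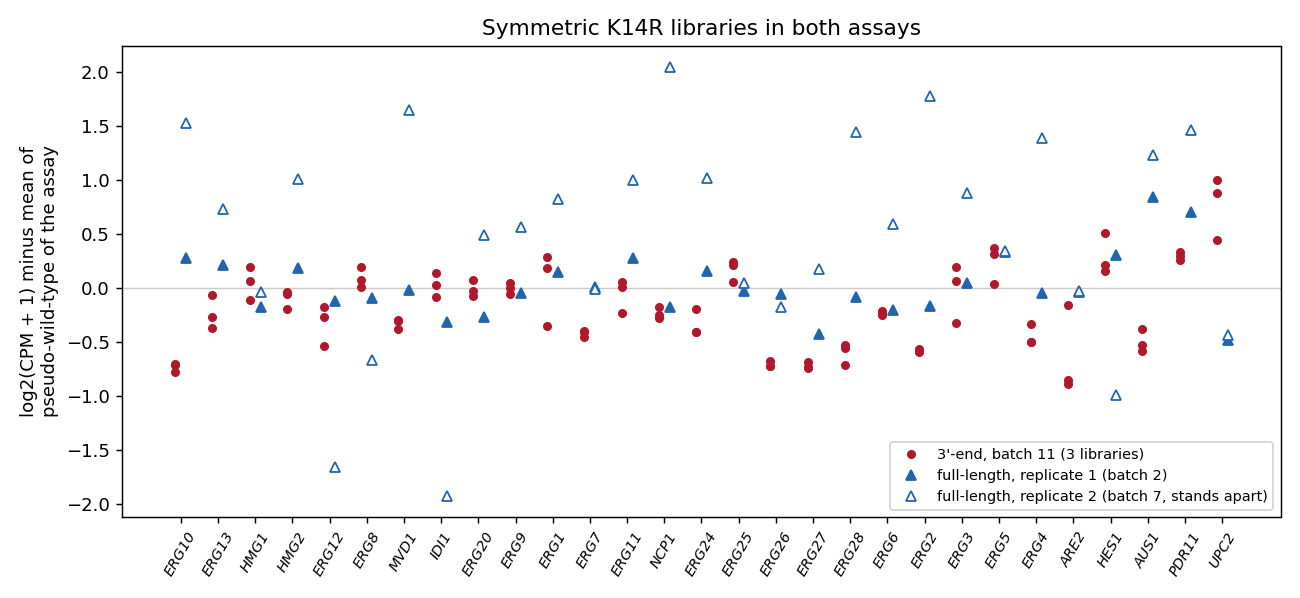
log2(CPM + 1) of the 29 members listed in both assays in symmetric K14R, minus the pseudo-wild-type mean of the assay, for 3 3′-end libraries (circles) and 2 full-length libraries (triangles). Replicate 1 lies around 0, with a median of -0.03 over all 30 members, and replicate 2 (open triangles) is spread widely, with a median of 0.58.

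In full-length symmetric K36Q 2 of 30 members passed the test, both higher. Of all genes 7.37% passed in either direction, so the count of members lay near the background. ARE2 stood at 181 to 238 CPM in the pseudo-wild-type and at 267 and 373 CPM in the mutant, with no overlap (0.74 ± 0.19, adjusted p = 0.0144). PDR11 stood at 27.3 to 47.0 CPM and at 61.1 and 76.6 CPM, also with no overlap (0.93 ± 0.29, adjusted p = 0.0407). Both mutant libraries lay above all 5 controls for 6 members and 14.3% of all genes. They lay below all 5 for 4 members (ERG12, ERG26, HMG1 and IDI1) and 11.0% of all genes. Without the pseudo-wild-type libraries of batches 3 and 4, which nearly match that of batch 2, ARE2 passed and PDR11 did not. PDR11 passed in 3 of 10 alternative settings and ARE2 in 8. Replicate 2 of this strain is among the 8 libraries that stood apart, and without it 0 members passed. In full-length symmetric K56R ERG25 rose by 0.53 ± 0.14 (adjusted p = 0.0388, 1.8% of all genes), at 834 and 1006 CPM against 662 to 880 CPM, with overlapping groups. It passed in 3 of 10 alternative settings (DESeq2, and without pseudo-wild-type replicate 3 or 5). It did not pass without either K56R replicate, without pseudo-wild-type replicate 1, 2 or 4, without those of batches 3 and 4, or when genes of low counts were kept.

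The 16 other full-length comparisons called 0 members with edgeR, with 0 to 12 at an unadjusted p under 0.05 and 0 to 2 by DESeq2. Symmetric S10A, a serine phosphorylated in mitosis, came nearest: 12 members had an unadjusted p under 0.05, 2 passed by DESeq2, the median was 0.33 and 0.0314% of all genes passed. The count was 10 in batch 8 alone and 9 without replicate 1, and replicate 2, which remained, is 1 of the 8 libraries that stood apart (0.97). In symmetric K37Q 0.0941% of all genes passed, in the asymmetric tail deletion delta4-20 0.282%, and in K56Q against K4A and K4Q 0.0157%. In symmetric R2K, K9R, K9Q, K14Q, K18R, K18Q, K27R and K27Q and in asymmetric K79A, K4R, K36R and T45A, 0% of 6376 genes passed. Of the strains compared with the pseudo-wild-type, R2K, K9R, K14Q, K18R, K37Q and K4R had no library in a batch that held it.

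Genes around the pathway were counted in 4 lists. In symmetric K14R (3′-end) the sterol ester and transport list had 5 higher and 3 lower of 21 tested, close to the 20.4% higher and 15.8% lower of all genes, with the sterol transfer genes LAM4 (0.91, adjusted p = 0.000533) and YSP2 (0.66, adjusted p = 0.00232) at the top and ATF2, LAM5 and NCR1 among the lower. The list of cofactors and regulators had 1 higher and 3 lower of 15. MGA2, an activator of the desaturase gene OLE1, rose by 0.71, and the reductase genes MCR1 and CBR1 and the HMG-CoA reductase chaperone gene NSG1 fell by 0.55, 0.50 and 0.48. Of 8 hypoxic genes tested TIR3 rose by 0.43, and of 4 isoprenoid branch genes 0 passed with edgeR, 0 with DESeq2 and 0 had an unadjusted p under 0.05. With the length slope as a covariate NCR1 and MCR1 were lower and COX5B, a hypoxic gene, was higher, and no other gene of the 4 lists passed.

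In asymmetric K14R these lists had 5 higher and 3 lower of 21, 4 higher and 1 lower of 15, 1 lower of 8 and 1 higher of 4, where 17.4% of all genes were higher and 11.6% lower, and with the slope PRY2 alone passed. In asymmetric K37Q they had 3 higher and 5 lower, 3 higher and 5 lower, 2 higher and 0 lower, and 0 higher and 2 lower, where 19.9% of all genes were higher and 21.6% lower, and with the slope 0 passed. CBR1 and NSG1 rose there by 0.68 and 0.45 and MGA2 fell by 0.52, signs opposite to those in symmetric K14R by the 3′-end data. In symmetric K56R they had 2 higher and 3 lower, 2 and 2, 1 and 1, and 0 and 0, where 13.4% of all genes were higher and 10.5% lower, and with the slope KES1, PRY2, DAP1 and COX5B passed. NSG1 and CBR1 fell by 0.50 and 0.64 and MGA2 rose by 0.64. In full-length symmetric K14R 8 of 13 hypoxic genes were higher and 0 lower (14.6% and 5.69% of all genes), among them TIR3 at 2.13 ± 0.37 (adjusted p = 0.0013) and HEM13, of heme synthesis, at 1.31 ± 0.30 (adjusted p = 0.00537), in the fit that rests on replicate 2. In that fit MGA2 (-1.07), CBR1 (1.42) and the transport gene SIP3 (-1.17) passed with signs opposite to the 3′-end data. SIP3 stood there at 0.63. NCR1 fell and TIR3 rose in both assays.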

How the data were processed

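The authors deposited raw counts per gene, 1 file per library, made with featureCounts 1.4.6-p2 per the file headers. Full-length fragments (dUTP poly(A)+ libraries, batches 1 to 9) were counted pairwise, reverse-stranded, leaving out marked duplicates, and 3′-end reads (batches 10 and 11) on the same strand with duplicates kept, both at a minimum mapping quality of 30. The submitters' processing notes name TopHat2 2.0.12, Bowtie2 and sacCer3. Without molecular identifiers, reads are not independent molecules. Names, coordinates and sequences came from the R64 reference, and all 30 members matched with the coordinates in the full-length files. The 3′-end features were matched by systematic name only, and their extents differ from the genes. That of PDR11, for example, has 2385 bases, where the gene has 4236.

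Counts were tested with edgeR 4.0.16 in R 4.3.3 (TMM, filterByExpr, quasi-likelihood F-test, Benjamini-Hochberg at 0.05 over all genes). Each 3′-end batch of 33 libraries was fitted alone (4984 and 4961 genes), and the 98 full-length libraries together with batch as a term (6376 genes, 1 aliased term dropped, strains with 1 library assumed to vary like the others, and the 5 pseudo-wild-type libraries entering singly). On simulated counts symmetric K14R tests recovered 61.6% of changes of 0.5 log2 and 98.9% of 1 log2 with the 3′-end design, and 17.6% and 92.9% with the full-length design. They also called 10 and 7 unchanged genes. The simulation gave both assays the same variation between libraries, with no batch effect, length trend or libraries standing apart. The fitted coefficient of variation was 0.13 in batch 11 and 0.23 full-length, so recovery in the real full-length fit may be lower. The alternatives were DESeq2 1.42.0, RLE, no filter, a length slope, a replicate block and leaving libraries out. Same-numbered K56R H3X and H3Y libraries correlated at 0.14 to 0.43, the labels name no pairing, and the block changed 0 calls. Symmetric K56R 3′-end replicates 3 and 4 were the most alike (chi-square 1.59 for each degree of freedom, other pairs 2.43 to 73.6) and were kept as 2. All members could be named, and those past the threshold were taken in order of p, at most 8 with values. The members and lists were chosen with earlier results of these data known.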

Additional observations from a re-analysis of the deposited data

Results flagged for a closer look

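In 2 groups of 6 pseudo-wild-type libraries 1 value lay far from the other 5, a gap that chance gives in about 1 of 20 groups. With 58 such groups screened, about 2.9 would be found by chance. MVD1 stood at 248 CPM in replicate 12 of 3′-end batch 10, where the others held 136 to 176 CPM. AUS1 stood at 24.7 CPM in replicate 18 of batch 11, where the others held 16.3 to 19.1 CPM.

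Of the 14 members that passed in symmetric K14R by the 3′-end data, 10 had the opposite sign in the full-length fit, and 3 of them (ERG2, ERG28 and MVD1) passed there too. In 4 of the 10 every library of 1 assay lay on one side of its pseudo-wild-type mean and every library of the other assay on the opposite side. ERG10 stood at a log2 fold change of 0.73 in the full-length and -0.75 in the 3′-end data, ERG24 at 0.46 and -0.34, AUS1 at 0.58 and -0.54, and UPC2 at -0.21 and 0.79. Against the pseudo-wild-type library labelled batch 2 alone, full-length replicate 1 was nearly level for ERG10, at a log2 ratio of 0.01. The ratio was 0.11 for ERG24, 0.44 for AUS1 and -0.22 for UPC2. The difference was not tested, and the full-length values rest in part on replicate 2, whose spread of 1.39 was the highest. The share of all genes with opposite signs was not counted, so the reversal is not shown to be particular to the members. Spearman's rho between length and fold change was 0.41 over all genes in the 3′-end and -0.41 in the full-length comparison. Over the members it was 0.25 and -0.02.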

How the results depend on the processing

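Counts of members called are given. With each library's length slope as a covariate they were 2 in symmetric and 0 in asymmetric K14R (14 and 8 reported), 0 in asymmetric K37Q (12), 0 in symmetric and 1 in asymmetric K56R (2 and 3), 0 for symmetric K14R against K18R (12) and 6 against K56R (1). ERG4 and NCP1 reversed to -0.012 and -0.093 in asymmetric K37Q under that term. DESeq2 gave 16 in symmetric and 10 in asymmetric K14R (14 and 8). It gave 1 in symmetric K37Q and 3 in its symmetric against asymmetric test (0 and 0). It also gave 4 in symmetric K56R (2), 2 for K14R against K56R (1), and, full-length, 2 in S10A (0), 10 in K14R (6) and 4 in K36Q (2). RLE size factors gave 4 in symmetric K56R and no filter also 4. No filter gave 0 in full-length K56R (1). Batch 8 alone gave 10 in S10A. Without the pseudo-wild-type of batches 3 and 4 full-length K14R, K36Q and K56R had 0, 1 and 0. Without both K37Q H3X libraries that stand apart, an alternative chosen after seeing the data like the K14R comparisons with K18R and K56R and the removal of single 3′-end pseudo-wild-type libraries, 3 remained in asymmetric K37Q. Where no value above names a library or a filter, the cause was not tested. The replicate block gave 0 members in the 12 comparisons between forms, the same as without it.

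Leaving out 1 library at a time gave 9 to 15 in symmetric K14R (9 without replicate 4 and 9 without replicate 5), 5 to 11 in asymmetric K14R (5 without pseudo-wild-type replicate 18), 9 to 13 in asymmetric K37Q, 0 to 5 in symmetric K56R (0 without its replicate 5, 1 without its replicate 4 or pseudo-wild-type replicate 17, 5 without pseudo-wild-type replicate 16) and 1 to 3 in asymmetric K56R (1 without H3Y replicate 4 or pseudo-wild-type replicate 17). It gave 7 to 13 for K14R against K18R (7 without K14R replicate 4 or K18R replicate 3) and 0 to 2 against K56R (0 without K14R replicate 5 or K56R replicate 3 or 5). The range was 0 to 4 in symmetric K37Q (4 without pseudo-wild-type replicate 10) and symmetric K18R (4 without replicate 4), 0 to 5 in the K37Q and 0 to 2 in the K18R symmetric against asymmetric tests, and 0 to 1 in symmetric K36Q and K56R H3X against H3Y. Full-length it was 0 to 20 in K14R (NCP1 at 2.02 without replicate 1 and reversed to -0.062 without replicate 2), 0 to 9 in S10A, 0 to 2 in K36Q and 0 to 1 in K56R. ERG27 and ERG10 passed in symmetric K14R under all 13 settings run, and ERG2, ERG4, ERG7, ERG26, ERG28 and UPC2 under 12, missing it with the length slope. NCP1 passed in asymmetric K56R under all 16. Low counts limit HES1, ARE2, AUS1, PDR11 and UPC2 most, the members with the lowest 3′-end levels, and few changes of 0.5 log2 could be found in the full-length data.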

Other observations

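PRY2, which encodes a secreted sterol-binding protein, told the 2 asymmetric K14R strains apart. It was higher with K14R in H3X than in H3Y by 1.18 ± 0.11 on the log2 scale (edgeR's quasi-likelihood test, adjusted p = 1.15e-07), where 0.464% of 4961 genes passed and 0 members did. It was lower by 0.54 in symmetric than in asymmetric K14R (adjusted p = 0.0227). Against the pseudo-wild-type it was higher by 0.38 in asymmetric K14R (adjusted p = 0.0022). Both of these use the mean of the 2 asymmetric strains, which differed from each other. In full-length symmetric K14R it was higher by 1.22 (adjusted p = 0.0245), in the fit that rests on replicate 2. In the 3′-end data it fell by 0.44 in symmetric and 0.34 in asymmetric K56R.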
